A study of Mus musculus with 11 samples.

Results

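The TREM2-TYROBP axis is described here through 7 genes chosen by name: Apoe, Trem2, Tyrobp, Syk, Plcg2, Inpp5d and Cd33. They were found by symbol among the 20888 genes of a table of RPKM values (reads per kilobase of transcript, scaled to the mapped reads of the library) from mouse lumbar spinal cord. All 7 were present, and all 7 were among the 14347 genes tested. The 11 libraries came from C57BL/6 mice aged 10 months. There were 3 libraries from non-transgenic mice (nTg) and 3 from mice with a transgene for mitofusin 2 carrying the R94Q substitution (MFN2-R94Q), a change that causes the axonal neuropathy Charcot-Marie-Tooth disease type 2A. A further 5 came from mice with that transgene and a mitofusin 1 transgene (MFN2-R94Q:MFN1). The study asked whether added mitofusin 1, a related protein of mitochondrial fusion, offsets the mutant protein. The labels do not name the promoter of either transgene, and no file used here gives it. The study's published account, as far as known here, used the neuronal Thy1 promoter. No group analysed here carried the mitofusin 1 transgene alone, so its effect without the mutant protein was not measured.

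TREM2 is a cell surface receptor of microglia, the resident macrophages of the central nervous system, and binds lipids, lipoproteins and cell debris. It has no signalling tail of its own and pairs in the membrane with the adaptor TYROBP, whose phosphorylated tail recruits the kinase SYK. SYK activates phospholipase C gamma 2 (encoded by Plcg2) among other effectors, while the lipid phosphatase SHIP1 (encoded by Inpp5d) restrains the pathway. The sialic acid receptor CD33 is described as a brake in human cells, and its action in mouse cells was not examined here. Apolipoprotein E (encoded by Apoe), made mostly by astrocytes and also by microglia, is a lipid carrier that TREM2 binds.

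The libraries held between 30.7 M and 71.9 M mapped reads, as recovered from the smallest steps between RPKM values, so that 0.5 RPKM stood for 15.3 to 36.0 reads per kilobase of transcript. Values of MFN2-R94Q replicate 2 lay farthest from their group mean, with a median distance over genes of 0.107 on the log2 scale. The same distance was 0.091 in MFN2-R94Q replicate 1 and 0.048 to 0.062 in the other 9 libraries.

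The genes lie apart from each other in the genome (GRCm38, GENCODE M21 gene models, all protein-coding). Trem2 is on chr17:48346401-48354147 on the plus strand, Tyrobp on chr7:30413760-30417585 on the plus strand and Apoe on chr7:19696109-19699188 on the minus strand. Cd33 is on chr7:43524216-43544428 on the minus strand, Syk on chr13:52583173-52648792, Plcg2 on chr8:117498291-117635142 and Inpp5d on chr1:87620312-87720507, the last 3 on the plus strand. PU.1, encoded by Spi1, is the transcription factor that sets up the myeloid lineage, and the promoters of these genes were searched for its core letters, GAGGAA or TTCCTC on the other strand. The promoter windows were 300 bases of RefSeq sequence each, from 250 before a transcription start to 50 after it (GRCm38.p6), and 6 of the 7 genes had at least 1 entry, Tyrobp being the exception. The core occurred in 6 of their 9 windows, belonging to Apoe, Trem2, Syk, Inpp5d and Cd33. It occurred in 28.3% of all 32851 windows, in 26.1% of the 13957 windows of tested genes, and in 10 of the 15 windows of microglial marker genes. The 4 stretches below run from 120 bases before to 30 bases after the start, 5′ to 3′ on the strand of the gene, with the core in capitals. They show the receptor and the phosphatase gene, where the core lies 40 and 20 bases before the start (Inpp5d has a second match just after it), the second listed start of the kinase gene, where it lies 9 bases before, and the effector gene, which holds none. The window of the first listed Syk start, not printed here, held no match either.
Trem2, chr17:48346281-48346430, plus strand: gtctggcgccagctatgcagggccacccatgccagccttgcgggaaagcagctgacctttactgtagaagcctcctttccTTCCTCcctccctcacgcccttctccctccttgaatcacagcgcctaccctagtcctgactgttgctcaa
Inpp5d, chr1:87620192-87620341, plus strand: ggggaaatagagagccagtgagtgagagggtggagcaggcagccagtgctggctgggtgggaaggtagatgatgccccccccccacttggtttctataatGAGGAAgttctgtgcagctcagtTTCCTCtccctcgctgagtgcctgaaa
Syk, chr13:52596762-52596911, plus strand: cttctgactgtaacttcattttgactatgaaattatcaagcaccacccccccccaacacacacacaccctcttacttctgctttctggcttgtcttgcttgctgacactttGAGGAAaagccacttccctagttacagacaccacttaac
Plcg2, chr8:117498155-117498304, plus strand: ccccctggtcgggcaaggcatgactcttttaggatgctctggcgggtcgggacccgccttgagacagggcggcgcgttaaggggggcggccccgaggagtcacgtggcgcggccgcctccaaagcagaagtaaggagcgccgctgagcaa
A match of these letters describes the sequence and does not show binding.

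Within every group the 7 genes kept 1 order of level, per length: Apoe, Tyrobp, Trem2, Inpp5d, Cd33, Plcg2 and Syk, from high to low. Apoe exceeded Tyrobp by 34 times in nTg, 36.2 times in MFN2-R94Q and 24 times in MFN2-R94Q:MFN1 cord. Tyrobp exceeded its partner Trem2 by 2.39, 2.00 and 2.36 times in the same groups. Each neighbouring pair in this order was separated without overlap of libraries in each group, except Inpp5d and Cd33 in MFN2-R94Q:MFN1 cord, where the ranges overlapped.

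The axis was highest in MFN2-R94Q:MFN1 cord. The receptor Trem2 and its adaptor Tyrobp rose most there, both 1.69-fold over nTg, and the sialic acid receptor Cd33 rose 1.49-fold. In MFN2-R94Q cord without the mitofusin 1 transgene, Trem2 and Cd33 were higher than in nTg and Tyrobp was at the same mean level. None of the 7 genes was called lower in any of the 3 comparisons. Differences were tested with limma on log2(RPKM + 0.5) in 1 fit over all 11 libraries, with p-values adjusted by Benjamini-Hochberg over all 14347 genes and a threshold of 0.05. Fold changes are on that scale, which understates the change of low genes.

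Between MFN2-R94Q and nTg, 2 of the 7 genes were called higher (Trem2 and Cd33), where 7.5% of all tested genes were. The groups did not overlap for 3 of the 7 (Trem2, Inpp5d and Cd33), against 16.6% of all genes with MFN2-R94Q entirely above nTg. Between MFN2-R94Q:MFN1 and MFN2-R94Q, 4 of the 7 were called higher (Apoe, Trem2, Tyrobp and Plcg2), against 9.55% of all genes, and 4 did not overlap (Trem2, Tyrobp, Plcg2 and Inpp5d), against 13.1%. The call of Apoe or Plcg2 or both ended with any 1 library left out, so that 2 or 3 of the 7 were then called. Between MFN2-R94Q:MFN1 and nTg, 6 of the 7 were called higher (all but Syk), against 2.09% of all genes, and all 7 lay entirely above nTg, against 9.03%. That count of 6 fell to 3 without nTg replicate 1, without nTg replicate 3 or with quantile-normalized values. The median log2 fold change of the 7 genes was 0.09, 0.20 and 0.31 in these comparisons, in the order given, against -0.002, 0.012 and 0.008 over all tested genes. Both comparisons with MFN2-R94Q share those 3 libraries, and both comparisons with nTg share the nTg libraries, so the 3 results are not independent.

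**Figure D1:**
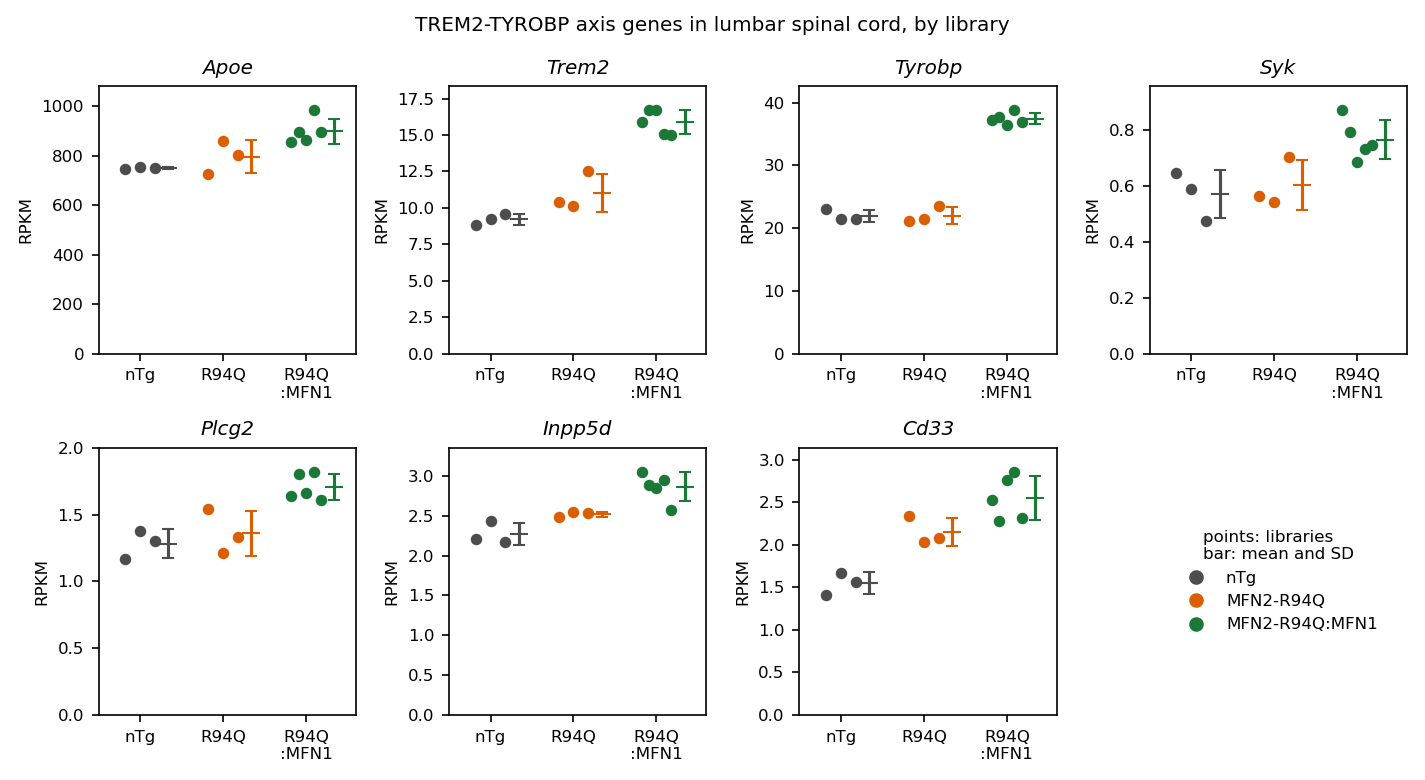
RPKM of each of the 7 genes (vertical axes, each from 0) in each library (points) by genotype, with the group mean and SD drawn as a cross bar. The MFN2-R94Q:MFN1 libraries sit above all nTg libraries for every gene, and for Tyrobp the nTg and MFN2-R94Q libraries share a range of 21.1 to 23.5 RPKM.

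Apoe, the ligand, was by far the most abundant of the 7. It was at 745, 752 and 749 RPKM in the 3 nTg libraries, at 725, 861 and 803 RPKM in the MFN2-R94Q libraries, and at 853, 897, 865, 983 and 896 RPKM in the MFN2-R94Q:MFN1 libraries. The MFN2-R94Q libraries thus spread to both sides of the nTg range, and replicate 2 reached above the lowest MFN2-R94Q:MFN1 library. Apoe was 1.20-fold higher in MFN2-R94Q:MFN1 than in nTg cord (limma, log2 fold change 0.26 ± 0.054 SE, adjusted p = 0.023). This call was lost with any 1 nTg library left out, at adjusted p-values of 0.082 to 0.097, and with quantile-normalized values, at a log2 fold change of 0.17 and an adjusted p of 0.15. Against MFN2-R94Q the log2 fold change was 0.18 ± 0.054, with an adjusted p just below the threshold, and the call was lost in 16 of 20 alternative analyses, with adjusted p-values up to 0.34. The log2 fold change between MFN2-R94Q and nTg was 0.09, with an adjusted p of 0.34. The summed level of 10 astrocyte markers was 1670 to 1700 RPKM in nTg, 1650 to 1720 RPKM in MFN2-R94Q and 1830 to 1920 RPKM in MFN2-R94Q:MFN1 libraries. Gfap, the intermediate filament of reactive astrocytes, was at 256 to 287, 364 to 422 and 443 to 497 RPKM. It accounted for the higher sum against nTg. The other 9 astrocyte markers summed to 1390 to 1450, 1290 to 1330 and 1370 to 1420 RPKM. Against MFN2-R94Q their sum was thus higher too in MFN2-R94Q:MFN1 cord, without overlap. In that comparison 4 of the 10 markers were called higher (3 without MFN2-R94Q replicate 2), beside 9.55% of all tested genes. The part of astrocytes in the Apoe result was not tested.

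Trem2, the receptor, showed a graded pattern. Its values were 8.85, 9.21 and 9.59 RPKM in nTg, 10.4, 10.1 and 12.5 RPKM in MFN2-R94Q, and 15.9, 16.7, 16.7, 15.1 and 15.0 RPKM in MFN2-R94Q:MFN1 cord. No group overlapped another. MFN2-R94Q cord was 1.18-fold above nTg (limma, log2 fold change 0.24 ± 0.070 SE, adjusted p = 0.034). Replicate 3 was the highest of that group, and without it the log2 fold change was 0.15, with an adjusted p of 0.093. The call was also lost without nTg replicate 1, 2 or 3, at adjusted p-values of 0.10, 0.087 and 0.051. The step from MFN2-R94Q to MFN2-R94Q:MFN1 was larger, at 1.43-fold (log2 fold change 0.51 ± 0.063, adjusted p = 0.00083), and held in all 20 alternatives with log2 fold changes of 0.37 to 0.60. Against nTg the log2 fold change was 0.75 ± 0.063 (adjusted p = 2.1e-05), and Trem2 ranked 15 of 14347 genes by p-value.

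Tyrobp, the adaptor of TREM2 and of several other myeloid receptors, did not show this grading. It was at 23.1, 21.5 and 21.4 RPKM in nTg and at 21.1, 21.4 and 23.5 RPKM in MFN2-R94Q libraries. Their means were the same, 22.0 ± 0.97 and 22.0 ± 1.3 RPKM (SD, n = 3 each). The 5 MFN2-R94Q:MFN1 libraries were at 37.3, 37.8, 36.5, 38.8 and 37.0 RPKM, with no overlap with either other group and an SD of 2.34% of their mean. Tyrobp rose 1.69-fold over MFN2-R94Q (limma, log2 fold change 0.76 ± 0.041 SE, adjusted p = 1.8e-06), the smallest p-value of all 14347 genes in that comparison. Against nTg the log2 fold change was also 0.76 ± 0.041 (adjusted p = 6.1e-07), with rank 3 by p-value. Both calls held in all 20 alternatives, with log2 fold changes of 0.68 to 0.81 against MFN2-R94Q and 0.74 to 0.79 against nTg.

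Syk, the kinase that binds the phosphorylated adaptor, was the lowest of the 7 and passed the test in no comparison. It was at 0.646, 0.588 and 0.476 RPKM in nTg, at 0.563, 0.543 and 0.705 RPKM in MFN2-R94Q, and at 0.871, 0.795, 0.687, 0.731 and 0.748 RPKM in MFN2-R94Q:MFN1 cord. The lowest MFN2-R94Q:MFN1 library was above every nTg library and below MFN2-R94Q replicate 3. The ratio of mean RPKM between MFN2-R94Q:MFN1 and nTg was 1.34, and the log2 fold change was 0.24 ± 0.081 (limma, adjusted p = 0.17).

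Plcg2, the phospholipase that turns membrane phosphoinositide into calcium and diacylglycerol signals, was at 1.17, 1.38 and 1.30 RPKM in nTg. It was at 1.54, 1.21 and 1.33 RPKM in MFN2-R94Q and at 1.64, 1.80, 1.66, 1.82 and 1.61 RPKM in MFN2-R94Q:MFN1 cord. The 5 libraries with both transgenes were the 5 highest. Plcg2 was 1.24-fold above nTg (limma, log2 fold change 0.31 ± 0.071 SE, adjusted p = 0.042) and 1.19-fold above MFN2-R94Q (0.25 ± 0.071, adjusted p = 0.040). Each call was lost in 12 of 20 alternatives. Against nTg the adjusted p was 0.19 without nTg replicate 1, 0.059 to 0.11 without nTg replicate 2, nTg replicate 3, MFN2-R94Q replicate 3 or any 1 MFN2-R94Q:MFN1 library, and under 0.05 without MFN2-R94Q replicate 1 or 2. Against MFN2-R94Q it was 0.17 without MFN2-R94Q replicate 2 and 0.052 to 0.087 without nTg replicate 3, MFN2-R94Q replicate 3 or any 1 MFN2-R94Q:MFN1 library.

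Inpp5d, whose product SHIP1 removes the phosphoinositide that the pathway's kinases build, was at 2.21, 2.43 and 2.17 RPKM in nTg. The MFN2-R94Q libraries were close together at 2.48, 2.54 and 2.53 RPKM, and the MFN2-R94Q:MFN1 libraries were at 3.05, 2.89, 2.85, 2.95 and 2.57 RPKM. The 3 groups did not overlap. Only the difference between MFN2-R94Q:MFN1 and nTg passed the test, at 1.21-fold (limma, log2 fold change 0.28 ± 0.057 SE, adjusted p = 0.023). It was lost without nTg replicate 1 or 3 (adjusted p = 0.11 and 0.10), without MFN2-R94Q:MFN1 replicate 1, 2 or 4 (0.054, 0.053 and 0.062) and after quantile normalization (0.087). The smaller steps had log2 fold changes of 0.12 from nTg to MFN2-R94Q and 0.16 from there to MFN2-R94Q:MFN1, with adjusted p-values of 0.20 and 0.090.

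Cd33, the sialic acid receptor, was called higher already in cord with the mutant transgene alone. It was at 1.41, 1.67 and 1.57 RPKM in nTg, at 2.34, 2.03 and 2.08 RPKM in MFN2-R94Q, and at 2.53, 2.28, 2.76, 2.86 and 2.32 RPKM in MFN2-R94Q:MFN1 cord. All libraries with the mutant transgene were above all nTg libraries, and the groups with and without the mitofusin 1 transgene overlapped. The rise from nTg to MFN2-R94Q was 1.29-fold (limma, log2 fold change 0.37 ± 0.086 SE, adjusted p = 0.012), the largest of the 7 genes in that comparison, and held in all 20 alternatives with adjusted p-values up to 0.047. The rise from nTg to MFN2-R94Q:MFN1 had a log2 fold change of 0.57 ± 0.077 (adjusted p = 0.0012) and also held in all 20. The difference between the groups with the mutant transgene was 0.20 ± 0.077 on the log2 scale (adjusted p = 0.10).

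**Figure D2:**
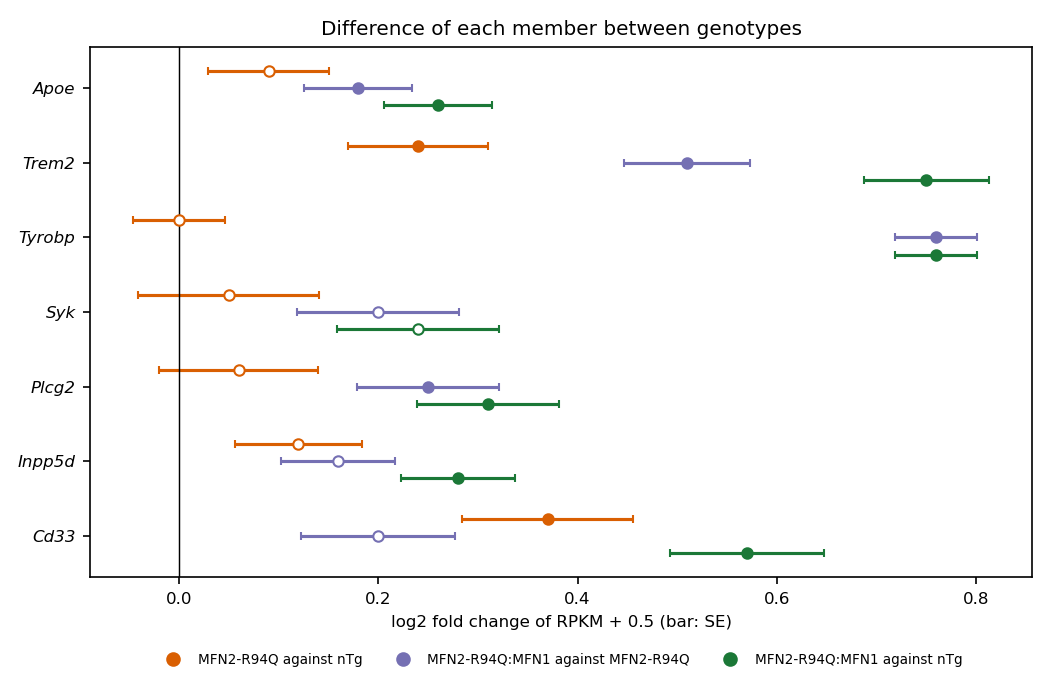
Log2 fold change of RPKM + 0.5 (horizontal axis) of each gene in the 3 comparisons (colours), with bars of 1 SE. Filled points passed the adjusted p threshold of 0.05. Tyrobp has both of its filled points at 0.76 and its open point at 0, while Cd33 has its filled points at 0.37 and 0.57.

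A ratio of RPKM values within a library does not depend on how that library was scaled. The tests below used the difference of log2(RPKM + 0.5) between the genes, which lies closer to 0 than the log2 of the printed ratio when a gene is low, and were repeated on the log2 of the ratio itself. The ratio of Trem2 to Tyrobp was 0.383, 0.429 and 0.448 in nTg, 0.494, 0.474 and 0.530 in MFN2-R94Q, and 0.427, 0.442, 0.457, 0.389 and 0.405 in MFN2-R94Q:MFN1 libraries. The 3 MFN2-R94Q libraries were the highest of all 11. The mean log2 ratio was 0.24 higher in MFN2-R94Q than in nTg (exact two-sided permutation test, p = 0.10, the smallest that 3 against 3 allows). From MFN2-R94Q to MFN2-R94Q:MFN1 the mean log2 ratio fell by 0.24 (exact p = 0.018, the smallest possible), and between MFN2-R94Q:MFN1 and nTg the difference was 0.00 (exact p = 0.98). After adjustment over the 9 ratio tests none passed, with 0.16 as the lowest adjusted p. Without the added 0.5 the log2 differences were 0.25, -0.24 and 0.01, with the same lowest adjusted p. The ratio of the phosphatase Inpp5d to the kinase Syk ranged from 3.43 to 4.68 over all libraries, highest at 4.68 in MFN2-R94Q replicate 2 and lowest in nTg replicate 1. Its mean log2 differences were 0.08, -0.04 and 0.03 in the 3 comparisons with the added 0.5 (exact p = 0.50, 0.59 and 0.68) and 0.06, -0.17 and -0.10 without it (exact p = 0.60, 0.16 and 0.39), so the sign between MFN2-R94Q:MFN1 and nTg depended on this choice and no difference was shown. The ratio of Cd33 to Trem2 was 0.159 to 0.181 in nTg, 0.167 to 0.225 in MFN2-R94Q and 0.136 to 0.189 in MFN2-R94Q:MFN1 libraries. Its mean log2 difference was -0.31 between the groups with the mutant transgene (exact p = 0.054, adjusted p = 0.24), and -0.29 without the added 0.5 (exact p = 0.089, adjusted p = 0.30).

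**Figure D3:**
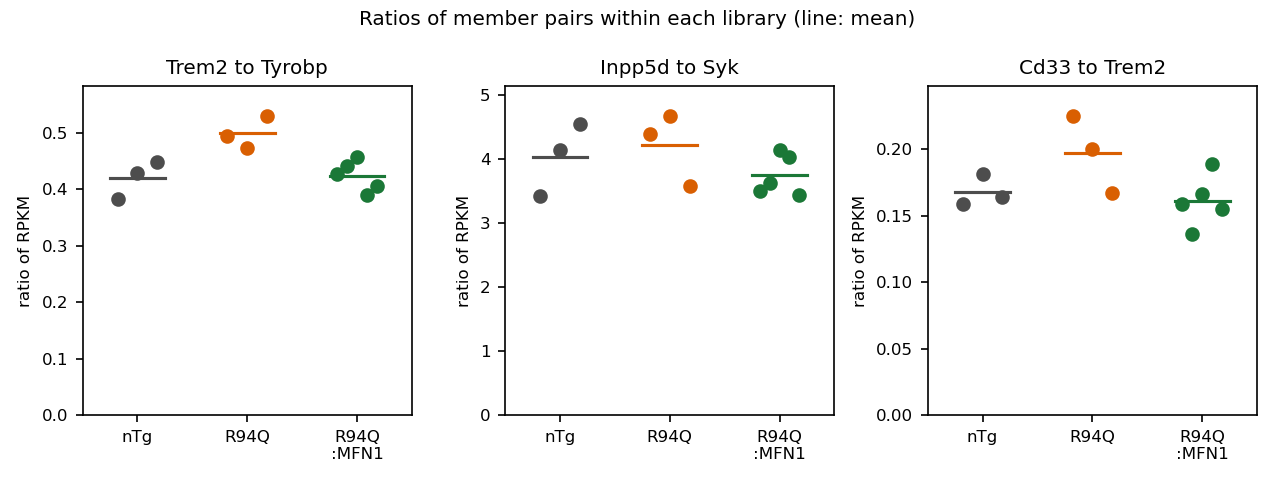
Ratio of RPKM within each library (points) for Trem2 to Tyrobp, Inpp5d to Syk and Cd33 to Trem2, by genotype, with the group mean as a line and each vertical axis from 0. For Trem2 to Tyrobp the MFN2-R94Q points, at 0.474 to 0.530, lie above those of both other groups.

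The mean level of general microglial transcripts was also highest in MFN2-R94Q:MFN1 cord. The mean log2(RPKM + 0.5) of 20 microglial markers, none of them a gene of the axis as defined here, was 3.02, 3.17 and 3.06 in nTg, 3.08, 2.88 and 3.14 in MFN2-R94Q, and 3.53, 3.50, 3.50, 3.56 and 3.44 in MFN2-R94Q:MFN1 libraries. The MFN2-R94Q:MFN1 libraries were all above the rest, and MFN2-R94Q replicate 2 was the lowest. All 20 markers were tested, and 19 were called higher in MFN2-R94Q:MFN1 than in MFN2-R94Q cord, 15 without MFN2-R94Q replicate 2. Against nTg 11 were called higher, 15 without that library, and between MFN2-R94Q and nTg 1 was called higher and 2 lower. For MFN2-R94Q:MFN1 cord, 9.55% of all tested genes were higher against MFN2-R94Q and 2.09% against nTg. Between MFN2-R94Q and nTg 7.5% of all tested genes were higher and 10.4% lower. In whole cord, more or fewer microglia and more or less RNA per microglial cell cannot be told apart.

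The marker mean was then subtracted from each gene in the same library and the fit repeated. The subtracted mean itself differed by -0.05, 0.48 and 0.42 between the groups, in the order MFN2-R94Q against nTg, MFN2-R94Q:MFN1 against MFN2-R94Q and MFN2-R94Q:MFN1 against nTg. Relative to it, Trem2 and Tyrobp were each 1.26-fold higher in MFN2-R94Q:MFN1 than in nTg cord (limma, log2 differences of 0.33 ± 0.073 and 0.33 ± 0.070 SE, adjusted p = 0.00041 and 0.00028), in all 20 alternatives. The other 5 genes were not called in that comparison, with log2 differences of -0.18 to 0.15. The markers themselves were uneven. Before the subtraction their log2 fold changes over nTg ran from 0.10 in Tmem119 and Selplg to 0.74 in Ctss. Trem2 and Tyrobp, at 0.75 and 0.76, were thus above the marker mean but close to the highest marker. Against MFN2-R94Q, Tyrobp was 0.28 ± 0.070 higher relative to the markers (adjusted p = 0.0011), again in all 20 alternatives, and Trem2 was at 0.04 (adjusted p = 0.63). Apoe, Syk, Plcg2, Inpp5d and Cd33 were called lower there, by -0.23 to -0.32, but the subtraction moves every gene that does not follow microglia, and 94.4% of all tested genes were called in this comparison and 93.6% in that with nTg. Between MFN2-R94Q and nTg, where the subtraction was small and 3.59% of all genes were called, Cd33 alone was called, 0.43 ± 0.098 higher (adjusted p = 0.020). That call was lost without nTg replicate 1, 2 or 3, at adjusted p-values of 0.070, 0.055 and 0.062, and with these groups fitted alone, at 0.076. Trem2 missed the threshold at 0.29 ± 0.081 (adjusted p = 0.052).

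**Figure D4:**
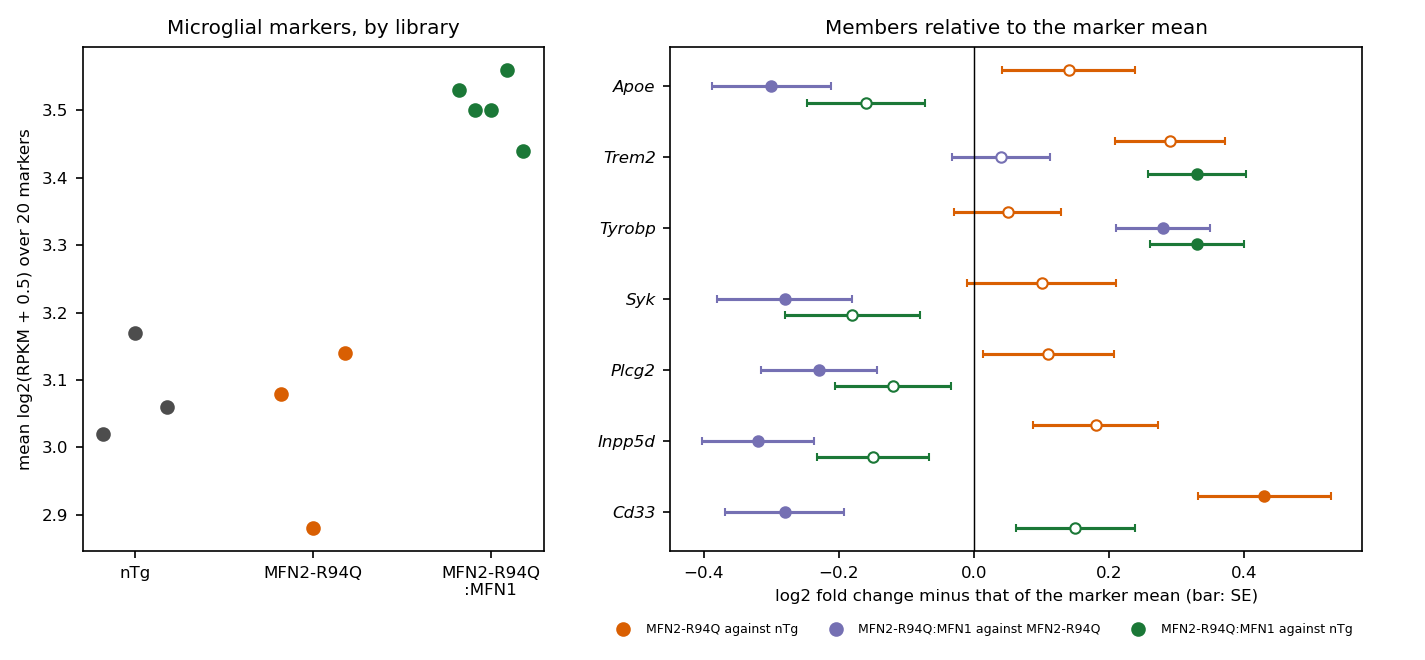
Left, the mean log2(RPKM + 0.5) of 20 microglial markers in each library (points, vertical axis not from 0). Right, the log2 fold change of each gene after subtraction of that mean, with bars of 1 SE and filled points past the adjusted p threshold; Trem2 and Tyrobp are the 2 genes with filled points to the right of 0 for MFN2-R94Q:MFN1 against nTg.

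Markers of other immune cells were low. The 7 border macrophage markers summed to 0.934 to 1.37 RPKM over all libraries. The 10 T and NK cell markers summed to 0.283 to 0.347 RPKM in nTg, 0.219 to 0.374 RPKM in MFN2-R94Q and 0.536 to 0.657 RPKM in MFN2-R94Q:MFN1 libraries, highest where Tyrobp was highest. The 5 B cell markers reached at most 0.584 RPKM in sum, and the 8 neutrophil markers, with Elane at 0 in every library, reached 2.97 RPKM in the MFN2-R94Q group and at most 0.948 RPKM in the others. The 7 monocyte markers summed to 1.20 to 1.82 RPKM in nTg, 2.26 to 3.17 RPKM in MFN2-R94Q and 3.54 to 4.28 RPKM in MFN2-R94Q:MFN1 libraries, again in the order of Trem2. Most of that sum was S100a4, a calcium-binding protein that other cells also make (group means of 1.30, 2.48 and 3.47 RPKM), and Ccr2, the monocyte chemokine receptor, had group means of at most 0.0441 RPKM. The part of these cells in the results was not tested.

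The genes around the axis were followed in 7 lists. Over all tested genes, 7.5% were called higher and 10.4% lower in MFN2-R94Q than in nTg cord. In MFN2-R94Q:MFN1 cord 9.55% were higher and 3.33% lower against MFN2-R94Q, and 2.09% and 0.223% against nTg. Among 13 tested genes of TREM2 ligands and lipid handling, 2 were called higher and 3 lower in MFN2-R94Q than in nTg cord, with a median log2 fold change of -0.02. Between MFN2-R94Q:MFN1 and each of the other groups 3 were called higher and none lower (1 lower against nTg without MFN2-R94Q replicate 2), with medians of 0.10 against MFN2-R94Q and 0.08 against nTg. Lpl, lipoprotein lipase, rose at each step, from a mean of 1.23 ± 0.18 RPKM in nTg to 1.78 ± 0.20 RPKM in MFN2-R94Q (limma, 1.32-fold, adjusted p = 0.0085) and 2.69 ± 0.087 RPKM in MFN2-R94Q:MFN1 cord (1.40-fold, adjusted p = 0.0026). Clu, clusterin, a lipoprotein that TREM2 also binds, had means of 326, 355 and 392 RPKM and rose 1.20-fold from nTg to MFN2-R94Q:MFN1 (adjusted p = 0.0012). Abca1, which loads lipid onto APOE, rose 1.49-fold in MFN2-R94Q (adjusted p = 0.0031) and was 1.30-fold above nTg in MFN2-R94Q:MFN1 cord (adjusted p = 0.026). Its relative Abca7 fell to 0.816 of nTg in MFN2-R94Q (adjusted p = 0.0050). Lcat, which esterifies cholesterol on lipoproteins, fell to 0.764 of nTg in MFN2-R94Q (adjusted p = 0.015) and was 1.46-fold higher in MFN2-R94Q:MFN1 than in MFN2-R94Q cord (adjusted p = 0.0026).

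Of 17 receptors that use or work with TYROBP, 6 were expressed highly enough to test. None was called between MFN2-R94Q and nTg, 5 were called higher in MFN2-R94Q:MFN1 than in MFN2-R94Q cord (3 without MFN2-R94Q replicate 2), and 2 were called higher than in nTg (4 without that library). The calls made up 83.3% of the list against MFN2-R94Q and 33.3% against nTg, beside 9.55% and 2.09% of all tested genes called higher. The medians were 0.04, 0.30 and 0.30. Itgb2, the beta chain of the complement receptor, rose 1.58-fold over MFN2-R94Q (limma, adjusted p = 0.00025) and 1.64-fold over nTg (adjusted p = 5.5e-05), with group means of 2.31, 2.43 and 4.11 RPKM. Csf1r, the growth factor receptor on which microglia depend, had means of 22.2, 22.8 and 28.8 RPKM and rose 1.29-fold over nTg (adjusted p = 0.0017). Itgam, the alpha chain that pairs with Itgb2, rose 1.48-fold and Siglech 1.15-fold over MFN2-R94Q (adjusted p = 0.0030 and 0.031). The call of Siglech was lost without MFN2-R94Q replicate 2, at an adjusted p of 0.13.

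Among 41 tested kinases, scaffolds and effectors downstream of SYK, most of them used by many cell types, the calls were a minority but more frequent than over all genes in the comparisons with MFN2-R94Q:MFN1. The share called higher was 2.44% in MFN2-R94Q against nTg, 17.1% in MFN2-R94Q:MFN1 against MFN2-R94Q and 14.6% in MFN2-R94Q:MFN1 against nTg, beside 7.5%, 9.55% and 2.09% of all tested genes, and the 9.76% called lower in the first stood beside 10.4%. Between MFN2-R94Q and nTg 1 was called higher and 4 lower (2 lower without MFN2-R94Q replicate 2), between MFN2-R94Q:MFN1 and MFN2-R94Q 7 higher (5 higher and 1 lower without it), and between MFN2-R94Q:MFN1 and nTg 6 higher (8 without it). The medians, 0.05, 0.04 and 0.03, were near 0. Several of the genes called in MFN2-R94Q:MFN1 were adaptors and enzymes of blood cells. Lat2, a membrane scaffold, rose 1.33-fold over nTg, Blnk, a linker of SYK to phospholipase C gamma, 1.45-fold, and the GTPase Rac2 1.30-fold (limma, adjusted p = 0.015, 0.023 and 0.017). Lyn, a Src-family kinase, rose 1.19-fold over MFN2-R94Q (adjusted p = 0.018). In MFN2-R94Q cord Prkcd, a kinase that diacylglycerol activates, rose 1.31-fold over nTg (adjusted p = 0.0083), while Akt2, Mapk3 and Rasgrp3 fell to 0.798, 0.879 and 0.727 of nTg (adjusted p = 0.0027, 0.0054 and 0.025). Akt2 and Mapk3 were then 1.13-fold higher in MFN2-R94Q:MFN1 than in MFN2-R94Q cord (adjusted p = 0.017 and 0.0046). Without MFN2-R94Q replicate 2 the calls of Rasgrp3 against nTg and of Akt2 against MFN2-R94Q were lost, at adjusted p-values of 0.056 and 0.063.

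Among 17 tested inhibitory receptors, phosphatases and brakes, 4 were called higher and 1 lower in MFN2-R94Q than in nTg cord (2 higher and 1 lower without MFN2-R94Q replicate 2). Between MFN2-R94Q:MFN1 and MFN2-R94Q 2 were higher and 1 lower, and between MFN2-R94Q:MFN1 and nTg 3 were higher. In the same order, the shares called higher were 23.5%, 11.8% and 17.6%, beside 7.5%, 9.55% and 2.09% of all tested genes. Those called lower in the first and second comparison were 5.88% each, beside 10.4% and 3.33%. The shares between MFN2-R94Q:MFN1 and MFN2-R94Q were thus near those over all genes. The medians were 0.11, 0.06 and 0.09. Lilrb4a, an inhibitory receptor that also marks activated microglia, rose at both steps from 0.231 to 0.505 and 0.924 RPKM (limma, adjusted p = 0.0034 and 0.0014). In nTg it was below the filter of 0.5 RPKM, which it passed through the groups where it was higher. Ptpn6, which encodes the phosphatase SHP-1, had means of 1.76 ± 0.32, 1.49 ± 0.019 and 2.62 ± 0.24 RPKM. In MFN2-R94Q:MFN1 cord Ptpn6 rose 1.56-fold over MFN2-R94Q (limma, adjusted p = 0.0013) and 1.39-fold over nTg (adjusted p = 0.010). Ptpn11, its widely expressed relative, rose 1.24-fold in MFN2-R94Q over nTg (adjusted p = 0.036) and was lower in MFN2-R94Q:MFN1 than in MFN2-R94Q cord (0.828 of it, adjusted p = 0.047, lost without MFN2-R94Q replicate 2 at 0.072). Dok3, an adaptor that damps such signals, fell to 0.709 of nTg in MFN2-R94Q (adjusted p = 0.0078). Its relative Dok1 rose 1.24-fold over nTg in MFN2-R94Q (adjusted p = 0.046, lost without MFN2-R94Q replicate 2 at 0.16). In MFN2-R94Q:MFN1 cord Dok1 was 1.30-fold above nTg (adjusted p = 0.044) and 1.05-fold above MFN2-R94Q (adjusted p = 0.66). Cbl, a ubiquitin ligase for SYK, rose 1.13-fold in MFN2-R94Q (adjusted p = 0.035, lost without MFN2-R94Q replicate 2 at 0.087).

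The 14 tested genes of TREM2 shedding and trafficking gave few calls, with medians of -0.07, 0.07 and 0.01. In MFN2-R94Q against nTg 1 was lower, in MFN2-R94Q:MFN1 against MFN2-R94Q 1 was higher and 1 lower, and against nTg 1 was lower. Each of these counts was 7.14% of the list. Over all tested genes 10.4%, 3.33% and 0.223% were lower in the same comparisons, and 9.55% were higher in the second. Vps35, the retromer subunit that returns membrane receptors from endosomes, was at 50.7, 49.7 and 47.6 RPKM in nTg, at 50.7, 44.0 and 46.6 RPKM in MFN2-R94Q, and at 30.6, 31.1, 31.8, 29.5 and 30 RPKM in MFN2-R94Q:MFN1 cord. The 5 libraries with both transgenes lay well below the other 6, which overlapped each other. Vps35 fell to 0.624 of nTg (limma, log2 fold change -0.68, adjusted p = 2.2e-06) and 0.654 of MFN2-R94Q (adjusted p = 2.4e-05), against the direction of the axis genes. Sort1, a sorting receptor, fell to 0.881 of nTg in MFN2-R94Q (adjusted p = 0.010) and was 1.11-fold higher in MFN2-R94Q:MFN1 than in MFN2-R94Q cord (adjusted p = 0.018).

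The list with most calls was that of 22 microglial activation genes whose induction is known to depend, at least in part, on TREM2. In order of comparison, 40.9%, 68.2% and 72.7% of them were called higher, beside 7.5%, 9.55% and 2.09% of all tested genes. In the first, 9.09% were called lower, beside 10.4%. Between MFN2-R94Q and nTg 9 were called higher and 2 lower, with a median of 0.15, between MFN2-R94Q:MFN1 and MFN2-R94Q 15 higher, with a median of 0.35, and between MFN2-R94Q:MFN1 and nTg 16 higher, with a median of 0.35. Cst7, an inhibitor of lysosomal proteases, had means of 0.369 ± 0.12, 0.800 ± 0.077 and 2.07 ± 0.33 RPKM and rose 1.51-fold and then 1.97-fold (limma, adjusted p = 0.0091 and 0.00066). Itgax, an integrin chain of activated microglia, rose 1.42-fold and then 1.65-fold (adjusted p = 0.0061 and 0.00083), and the lysosomal protein Cd68 1.29-fold and 1.47-fold (adjusted p = 0.0074 and 0.00071). Itgax had means of 0.19, 0.486 and 1.13 RPKM. Its nTg and MFN2-R94Q means were below the filter of 0.5 RPKM, so it was tested only because of its MFN2-R94Q:MFN1 level. Cst7 was below 0.5 RPKM in nTg and passed the filter through the groups where it was higher. Lgals3, a galectin of phagocytes, went from 1.64 to 5.01 and 7.95 RPKM, 2.57-fold and 1.54-fold (adjusted p = 3.4e-05 and 0.0013), and Gpnmb from 0.505 to 0.917 and 1.75 RPKM (adjusted p = 0.0034 and 0.00052). Each of these genes passed the test between nTg and MFN2-R94Q, where the Tyrobp means were equal, and the difference between such steps was not tested gene by gene. The tetraspanin Cd9 and the lysosomal protease Ctsd were called at the second step, 1.41-fold and 1.19-fold (adjusted p = 0.00068 each), while their first step had adjusted p-values of 0.50 and 0.14. Fabp5, a fatty acid carrier that other cells of the cord also make, had means of 127, 102 and 132 RPKM. It fell to 0.807 of nTg in MFN2-R94Q (limma, adjusted p = 0.0037) and was 1.29-fold higher in MFN2-R94Q:MFN1 than in MFN2-R94Q cord (adjusted p = 0.001). For the genes that rose, too, the cells that made the transcripts were not resolved in whole cord.

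Of 14 tested myeloid transcription factors, 1 was called higher and 1 lower in MFN2-R94Q than in nTg cord, and neither without MFN2-R94Q replicate 2. Between MFN2-R94Q:MFN1 and MFN2-R94Q 5 were higher, and between MFN2-R94Q:MFN1 and nTg 5 were higher (7 without that library), with medians of 0.07, 0.14 and 0.21 in the 3 comparisons. Between MFN2-R94Q and nTg the shares called higher and lower were 7.14% each, beside 7.5% and 10.4% of all tested genes. In each comparison of MFN2-R94Q:MFN1 35.7% were higher, beside 9.55% against MFN2-R94Q and 2.09% against nTg. Spi1, which encodes PU.1, had means of 1.71 ± 0.19, 1.43 ± 0.065 and 2.23 ± 0.23 RPKM. It rose 1.41-fold over MFN2-R94Q (limma, adjusted p = 0.0029) and was 1.24-fold above nTg with an adjusted p of 0.062. Irf8, the partner of PU.1 in microglia, rose 1.43-fold over MFN2-R94Q and 1.5-fold over nTg (adjusted p = 0.0030 and 0.0015). Bhlhe41, Bhlhe40 and Ikzf1 rose 1.16-fold, 1.15-fold and 1.26-fold over nTg (adjusted p = 0.0059, 0.024 and 0.023). The calls in MFN2-R94Q against nTg were Mef2a at 1.13-fold and Sall1, which holds the homeostatic state of microglia, at 0.798 of nTg (adjusted p = 0.022 and 0.047).

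**Figure D5:**
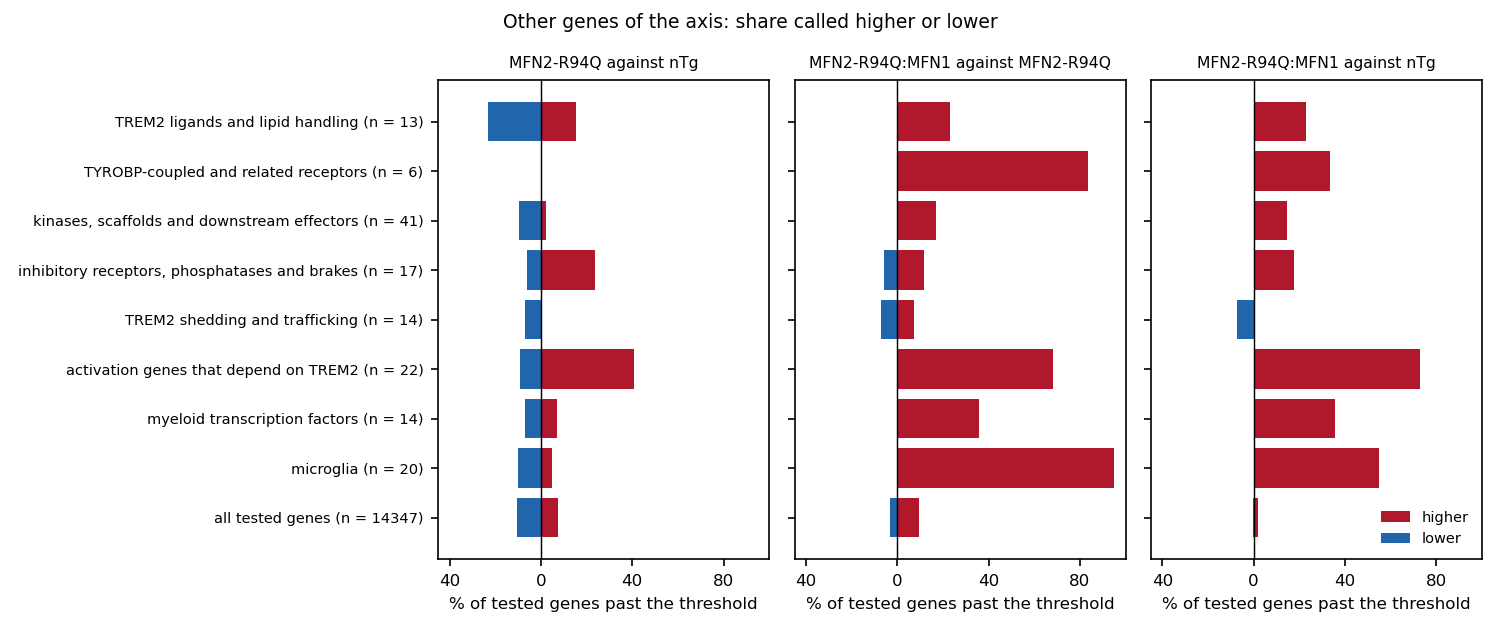
Share of the tested genes of each list (horizontal axis, percent; n is the number tested) past the adjusted p threshold in each comparison, higher to the right and lower to the left of 0, with the 20 microglial markers and all tested genes at the bottom. The activation genes and the microglial markers have the longest bars for MFN2-R94Q:MFN1 against nTg, at 16 of 22 and 11 of 20 genes.

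The genes with the profile nearest to Trem2 over the 11 libraries were sought by the root mean square difference of centred log2(RPKM + 0.5) values, among 12338 genes averaging at least 1 RPKM. They were the lysosomal protease Ctss, at 0.0849, the pore-forming protein Mpeg1, at 0.1, Itgb2, at 0.105, Lpl, at 0.116, and Cd9, at 0.121, where Trem2 itself varied by 0.338 about its mean. Ctss, also one of the 20 microglial markers, had means of 56.5 ± 2.8, 69.4 ± 3.9 and 95.2 ± 6.7 RPKM. Nearest to Tyrobp were Itgb2, at 0.0915, the complement component C1qa, at 0.110, the lysosomal membrane protein Laptm5, at 0.133, Trem2, at 0.134, and Ly86, at 0.134. Ly86 had means of 9.02, 8.81 and 14.5 RPKM, a step between the same groups as for Tyrobp. C1qa and Laptm5 are among the 20 markers too.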

How the data were processed

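RNA from the lumbar cord was sequenced from poly(A)-selected stranded libraries, per the labels' protocols. The authors deposited RPKM values per gene, and per the submitters' processing notes reads were aligned to mm10 with TopHat and handled in Partek 7.17.0918. The counting rule for strand and multiply mapping reads is not given in the sources used here. Groups came from the labels, and replicate numbers follow record order. The labels do not say which libraries share an animal or a preparation, so p-values measure the spread between these libraries, which may be partly technical.

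Values were analysed as log2(RPKM + 0.5) with limma 3.58.1 (R 4.3.3; lmFit, contrasts.fit, eBayes with trend) over genes at 0.5 RPKM or more in at least 3 libraries, 14347 of 20888, in 1 fit of all 11 libraries, with Benjamini-Hochberg adjustment. A second fit subtracted each library's mean over 20 microglial markers. Ratios were compared by exact permutation. Read depth was recovered from RPKM steps of short RNA genes (RefSeq GRCm38.p6 lengths), with 96.4 to 100.0% of values of 1 to 5 reads within 0.02 of a whole read. In simulated data of 14347 genes for these libraries, 100 genes were changed by 0.5 on the log2 scale and 100 by 1. Changes of 0.5 were recovered at 83% between MFN2-R94Q and nTg, 94% between MFN2-R94Q:MFN1 and MFN2-R94Q and 95% between MFN2-R94Q:MFN1 and nTg. Each gene was given the same spread in all groups, and changes below 0.5 were not simulated.

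The 7 genes, the pathway lists and the markers were chosen with earlier results of these data known. All 7 are named throughout. From each pathway list up to 4 called genes with the smallest adjusted p in a comparison are named, at a mean of 0.5 RPKM or more, with the 5 profiles nearest to Trem2 and to Tyrobp. Promoter sequences are RefSeq's (GRCm38.p6). Alternatives changed the pseudocount, filter, scaling, fit, marker subset or the set of libraries. Some items are not reported here.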

Additional observations from a re-analysis of the deposited data

How the results depend on the processing

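No paired analysis was possible because the labels give no replicate numbers that the groups share. Across 20 alternatives (19 for Syk, which was below the filter of 1 RPKM), no value of the 7 genes changed to a call in the opposite direction. Of 417 values, 358 stayed on their side of the threshold, 57 lost a call and 2 gained one (Inpp5d and Cd33 between MFN2-R94Q:MFN1 and MFN2-R94Q, with array weights). In order of comparison (MFN2-R94Q against nTg, MFN2-R94Q:MFN1 against MFN2-R94Q, MFN2-R94Q:MFN1 against nTg), genes called were 2561, 1848 and 332. Fitting the 2 groups alone gave 844 in the first and 565 in the last, array weights 3378 in the second and 590 in the last, and no filter 1198 in the second. Leaving out 1 library gave 1213 to 2857, 882 to 2217 and 189 to 589, with the lowest without nTg replicate 2, MFN2-R94Q replicate 2 and nTg replicate 1. Of called genes, 74.1% were higher in the second comparison and 90.4% in the last, 54.7% and 82.9% after quantile normalization, and 59.1% and 79.1% after setting equal medians. Of the 7 genes, 2, 4 and 6 were called. No filter gave 1 in the first and 2 in the second, fitting the 2 groups alone likewise 1 and 2, quantile normalization 2 in the second and 3 in the last, equal medians 2 in the second, and leaving out 1 library 1 to 2, 2 to 3 and 3 to 6. Relative to microglial markers 1, 6 and 2 were called. A pseudocount of 1 gave 2 in the first and 4 in the last, the filter of 1 RPKM 2 in the first, fitting the 2 groups alone 0 in the first, array weights 5 in the first and 6 in the last, the homeostatic markers 2 in the first, the pan-myeloid markers 6 in the last, and leaving out 1 library 0 to 2, 5 to 6 and 2 to 3. The pathway counts without MFN2-R94Q replicate 2 and the ratios without a pseudocount were chosen after seeing the data. The cause of these shifts was not tested. Depth limits genes of low RPKM, such as Syk at 0.476 to 0.871 RPKM.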
